A study of Mus musculus with 8 samples.

Results

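The unfolded protein and integrated stress response was examined through 40 genes, chosen by name for their place in the pathway and matched by symbol to the identifiers of the count table. These 40 are a small set of the 55487 genes counted, and all 40 were among the 14228 genes with enough counts to be tested. RNA was sequenced from LLC cells (Lewis lung carcinoma, a mouse lung carcinoma line) grown in culture, with 4 wild-type libraries and 4 libraries of Ago2 knock-out cells, called ΔAgo2. The ΔAgo2 cells had received a lentivirus carrying Cas9, a guide against Ago2 and puromycin resistance. They were selected with puromycin, and single cells were sorted to obtain clones, so the genotype comparison may rest on 1 clone, which also carries the vector. No such vector is described for the wild-type cells. Both genotypes were grown in the same medium with serum, no treatment is described, and the labels give every library the same batch number. The libraries are described as biological replicates without further detail, so p-values measure only the spread between these libraries.

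Secreted and membrane proteins fold in the endoplasmic reticulum (ER), and unfolded protein there is sensed by IRE1, ATF6 and PERK. IRE1 splices the mRNA of the transcription factor XBP1, ATF6 is cut to release a transcription factor, and PERK phosphorylates the translation initiation factor eIF2α. Other kinases phosphorylate the same factor when amino acids or heme run short, and the shared outcome, the integrated stress response, slows translation while favoring that of ATF4, which induces genes of amino acid supply. Gene counts show the amount of each mRNA, and they show neither the splicing of Xbp1 nor the phosphorylation of eIF2α.

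Ago2, the targeted gene, averaged 303.6 ± 165 CPM (counts over the library total, scaled by the TMM method; SD, n = 4) for wild-type and 351 ± 55.7 CPM for ΔAgo2 libraries. Its log2 fold change of 0.21 (standard error, SE, 0.40) had an adjusted p of 0.908 (quasi-likelihood test of edgeR, p adjusted after Benjamini and Hochberg over all genes), and it was -0.047 without wild-type replicate 4. Knock-out and wild-type libraries thus could not be told apart by the level of this transcript, and groups follow the labels. The paper examined the knock-out by western blot of Ago2 protein, which mRNA counts do not measure. Library totals ran from 39628101 to 68530912 counts. Wild-type replicate 4 stood apart, with a median Spearman correlation of 0.864 to the other wild-type libraries, against 0.948 to 0.986 in the other 7 libraries with their own genotype, and its share of mitochondrial counts was 0.540%, against 2.39% to 4.51%. In TPM, the authors' values per transcript length, the epithelial markers Krt8 and Krt18 were at 66.8 or more in every library and Krt19 at 0.27 to 4.7, while Epcam, Cdh1 and Cldn4 reached at most 0.12. Of the mesenchymal markers Vim was at 2217 or more, Fn1 at 422 or more and Cdh2 at 2.21 to 12.3, whereas Pdgfrb, Col1a1 and Col1a2 reached at most 2.78. Among lung lineage genes Nkx2-1, Sftpb and Scgb1a1 were listed at 0 and Sftpc reached 0.05, and the endothelial markers Pecam1, Cdh5, Kdr and Vwf reached at most 0.57. The immune markers Ptprc, Adgre1, Cd3e and Itgam reached at most 0.02 TPM, but Cd68, a lysosomal protein abundant in macrophages, was at 94.1, 16.5, 94.6 and 17.8 TPM in wild-type and at 29.2, 27.0, 44.4 and 12.8 TPM in ΔAgo2 replicates 1 to 4.

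None of the 40 genes passed an adjusted p of 0.05 between the genotypes in edgeR's quasi-likelihood test, where 0.295% of all tested genes did, and none passed with DESeq2, where 2.23% did. At an unadjusted p under 0.05, 3 of the 40 were lower in ΔAgo2 cells, Xbp1, Vldlr and Calr, and 0 were higher, against 7.34% of all genes in either direction, 4.62% lower and 2.72% higher. DESeq2 gave 3 members under that unadjusted threshold, against 6.48% of all genes to which it gave a p. Log2 fold changes of the 40 genes had a median of -0.0035, with 20 above and 20 below 0, beside a median of -0.11 and 41.2% above 0 over all tested genes. Without wild-type replicate 4, 1 gene passed, Vldlr, against 0.777% of all genes, and 4 had an unadjusted p under 0.05, against 12.6%. The median of the 40 was then -0.074 beside -0.034 over all genes, with 15 members above and 25 below 0. In the plot of log2 fold changes, most error bars span 0.

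**Figure D1:**
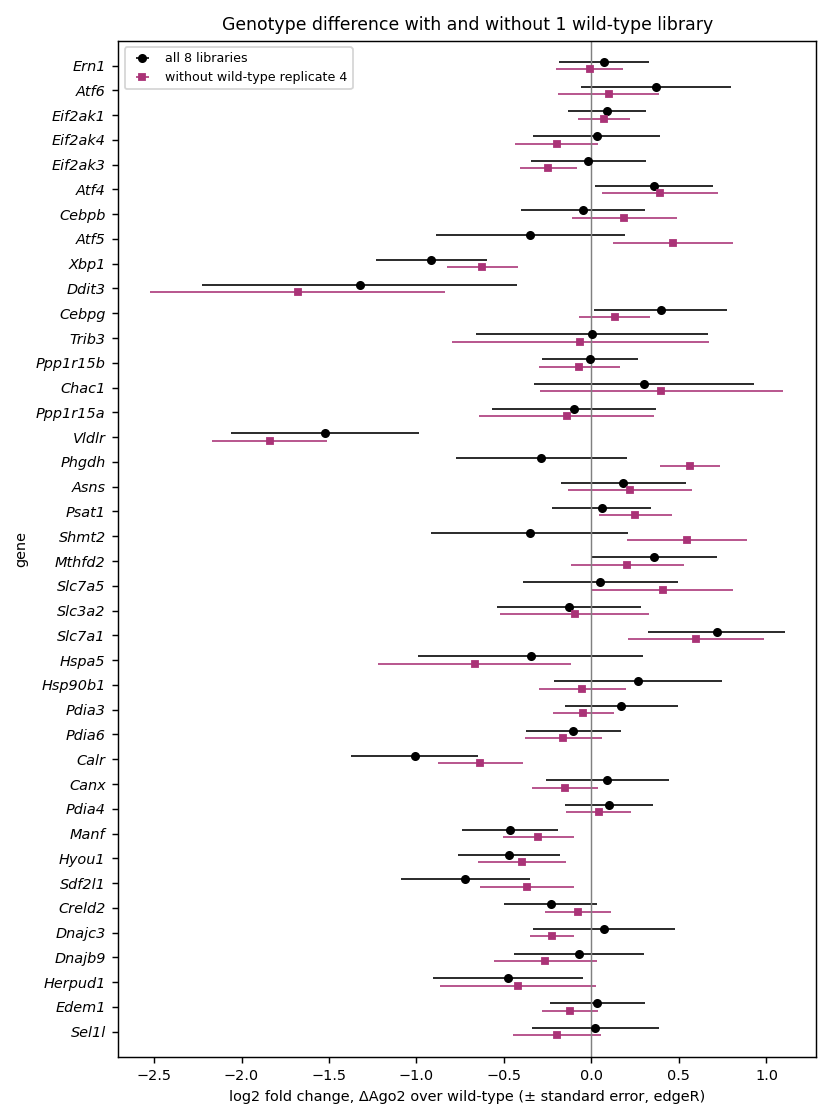
Log2 fold change of ΔAgo2 over wild-type for the 40 genes, grouped by role from the top (x axis, log2 units; bars are 1 standard error from edgeR). Black circles use all 8 libraries and purple squares leave out wild-type replicate 4. Vldlr lies at -1.52 and -1.84, Xbp1 at -0.92 and -0.62, and Calr at -1.01 and -0.63.

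Xbp1 encodes the transcription factor that IRE1 activates by splicing its mRNA. It was at 179.8, 113, 139 and 268 CPM in wild-type replicates 1 to 4 and at 77.0, 79.2, 106 and 109 CPM in ΔAgo2 replicates 1 to 4. Every ΔAgo2 library lay below every wild-type library, with the nearest pair at 109 and 113 CPM. The wild-type mean was 1.89 times the ΔAgo2 mean, and 1.55 times without wild-type replicate 4, which was the highest library. Its log2 fold change was -0.92 (SE 0.32, unadjusted p = 0.0154, edgeR adjusted p = 0.503). The exact permutation test on log2 CPM gave p = 0.0286, two-sided, the smallest p that 4 libraries against 4 allow. Any gene without overlap gives this p, so it adds nothing to the lack of overlap. In TPM, Xbp1 was at 159 ± 21.4 in wild-type and 102 ± 15.04 in ΔAgo2 cells (SD, n = 4), and the groups did not overlap on that scale either. Xbp1 and Calr were 2 of 40 genes without overlap in CPM, both lower in ΔAgo2 cells, while 6.07% of all tested genes had no overlap in either direction and 2.98% were lower without overlap, so the count for the 40 genes lay near the background.

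Calr encodes calreticulin, a calcium-binding chaperone of glycoproteins in the ER. It was at 554, 588, 1034 and 1576 CPM in wild-type replicates 1 to 4 and at 469, 534, 442 and 417 CPM in ΔAgo2 replicates 1 to 4. The wild-type libraries spread over a wide range, with replicates 3 and 4 high, while the ΔAgo2 libraries were close together and all lower than the wild-type ones. The log2 fold change was -1.01 (SE 0.36, edgeR adjusted p = 0.524), and -0.63 without wild-type replicate 4 (edgeR adjusted p = 0.324). In TPM the groups overlapped, since wild-type replicate 1, at 594, lay below ΔAgo2 replicates 1 and 2, at 615 and 674.

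Vldlr encodes a lipoprotein receptor and is a known target of the PERK and ATF4 branch. It was at 30.3, 15.8, 33.3 and 4.81 CPM in wild-type replicates 1 to 4 and at 5.73, 5.20, 8.01 and 10.4 CPM in ΔAgo2 replicates 1 to 4. Wild-type replicate 4 was the lowest of all 8 libraries, and wild-type replicates 1 to 3 were each above every ΔAgo2 library. Over all 8 libraries the log2 fold change was -1.52 (SE 0.54, edgeR adjusted p = 0.512). Without wild-type replicate 4 Vldlr was lower in ΔAgo2 cells, with a log2 fold change of -1.84 (SE 0.33, edgeR adjusted p = 0.0443). The mean of wild-type replicates 1 to 3 was then 3.61 times the ΔAgo2 mean. It also passed with voomWithQualityWeights, where 1.81% of all genes did, and its adjusted p ran from 0.00654 to 0.975 over the alternative settings. At a mean of 4.77 TPM over the 8 libraries, Vldlr had the lowest level of the 40 genes.

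**Figure D2:**
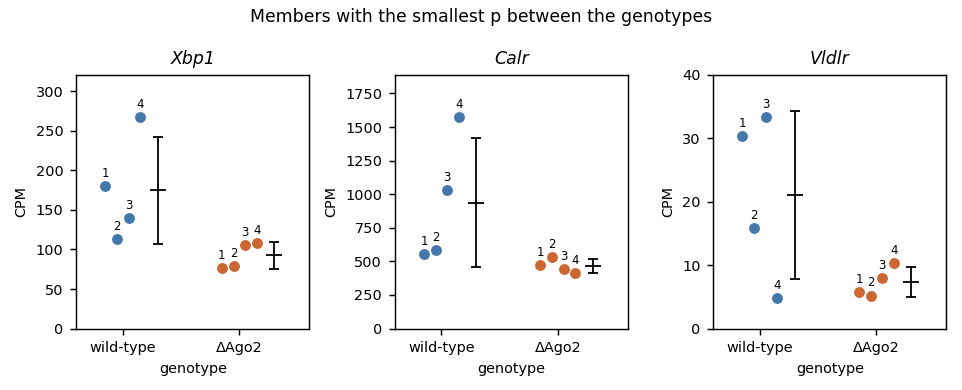
CPM (y axis, linear, from 0) of Xbp1, Calr and Vldlr by genotype (x axis). Points are libraries labelled with their replicate number, and the black mark with its bar is the mean with the SD (n = 4). Xbp1 and Calr do not overlap between genotypes, and for Vldlr wild-type replicate 4, at 4.81 CPM, lies below all ΔAgo2 libraries.

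The windows around the start of these 3 genes are shown because they are the genes with the smallest p. Each sequence is from RefSeq (GRCm38.p6) and runs 5′ to 3′ from 250 bases before to 50 bases after the annotated start, with matches to the stress motifs described further on in capitals. Xbp1 (gene at chromosome 11, 5520659 to 5525893, plus strand) has its window at chr11:5520391-5520690. Calr (chromosome 8, 84841850 to 84846934, minus strand) has its window at chr8:84846882-84847181. Vldlr (chromosome 19, 27216484 to 27254231, plus strand) has a window for each of 2 annotated starts, and the one at chr19:27216770-27217069 is shown, since the other holds no match.
Xbp1: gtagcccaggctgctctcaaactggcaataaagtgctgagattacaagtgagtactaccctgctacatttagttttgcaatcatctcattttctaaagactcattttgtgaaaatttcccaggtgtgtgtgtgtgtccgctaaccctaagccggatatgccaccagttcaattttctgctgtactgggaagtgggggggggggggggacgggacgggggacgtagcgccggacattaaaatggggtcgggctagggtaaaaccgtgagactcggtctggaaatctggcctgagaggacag
Calr: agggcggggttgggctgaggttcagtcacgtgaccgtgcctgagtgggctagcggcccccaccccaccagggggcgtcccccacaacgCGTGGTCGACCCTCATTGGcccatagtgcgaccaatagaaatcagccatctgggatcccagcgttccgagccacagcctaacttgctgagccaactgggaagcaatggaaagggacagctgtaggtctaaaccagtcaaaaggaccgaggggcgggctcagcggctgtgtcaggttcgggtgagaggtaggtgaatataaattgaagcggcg
Vldlr: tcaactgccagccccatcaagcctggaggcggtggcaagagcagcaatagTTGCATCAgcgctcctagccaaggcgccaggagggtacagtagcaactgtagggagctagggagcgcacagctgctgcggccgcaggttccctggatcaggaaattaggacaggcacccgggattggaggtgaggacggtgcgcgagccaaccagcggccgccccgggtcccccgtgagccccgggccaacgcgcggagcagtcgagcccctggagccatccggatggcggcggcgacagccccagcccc
The Xbp1 window holds none of the 4 motifs searched. In Calr the capitals mark an ER stress element on the minus strand of the window, and in Vldlr they mark a C/EBP-ATF element, also on the minus strand.

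None of the 5 sensors and kinases separated the genotypes. Ern1, which encodes IRE1, was at 467, 428, 447 and 338 CPM in wild-type and at 391, 344, 543 and 489 CPM in ΔAgo2 replicates 1 to 4. Eif2ak3, which encodes PERK, was at 55.6, 50.3, 64.8 and 22.5 CPM in wild-type and at 43.5, 41.8, 53.2 and 52.2 CPM in ΔAgo2 cells. The log2 fold change was 0.07 (SE 0.26, edgeR adjusted p = 0.956) for Ern1 and -0.019 (SE 0.33, edgeR adjusted p = 0.993) for Eif2ak3. Both genotypes overlapped for each of these sensors, and the sign of Eif2ak3 changed under 5 of the 11 settings that used all libraries.
Atf6, the sensor that is itself a transcription factor precursor, was at 312, 223, 504 and 104 CPM in wild-type and at 325, 286, 463 and 401 CPM in ΔAgo2 libraries. Its log2 fold change of 0.37 (SE 0.43, edgeR adjusted p = 0.841) was 0.10 without wild-type replicate 4, the lowest library. Eif2ak4, which encodes the amino acid sensing kinase GCN2, was at 72.1, 55.0, 113 and 31.5 CPM in wild-type and at 70.003, 63.5, 80.8 and 62.9 CPM in ΔAgo2 libraries, with a log2 fold change of 0.03 (SE 0.36, edgeR adjusted p = 0.988). Eif2ak1, which encodes the heme-regulated kinase HRI, lay between 54.3 and 71.4 CPM in all 8 libraries. For these 5 genes the SD of log2 CPM had a median of 0.18 both in wild-type replicates 1 to 3 and in ΔAgo2 libraries, against 0.36 and 0.20 over all tested genes and 0.53 and 0.30 over the 40 members. Wild-type replicate 4 was the lowest of the 8 libraries for 4 of the 5, where it was the lowest for 37.1% of all tested genes. At the level of TPM, Ern1 was the most abundant of the 5, at a mean of 179 over the 8 libraries, followed by Atf6 at 122, Eif2ak1 at 36.1, Eif2ak4 at 31.6 and Eif2ak3 at 27.4.

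Atf4, the central transcription factor of the integrated stress response, was at 293, 513, 599 and 510.2 CPM in wild-type and at 428, 475, 631 and 922 CPM in ΔAgo2 replicates 1 to 4. The groups overlapped, with ΔAgo2 replicate 4 the highest and wild-type replicate 1 the lowest. The log2 fold change was 0.36 (SE 0.34, edgeR adjusted p = 0.807), and it was 0.099 without ΔAgo2 replicate 4. In TPM, Atf4 had a mean of 786 over the 8 libraries, the highest of the 6 transcription factors, followed by Cebpb at 304.3, Atf5 at 255, Xbp1 at 130.5, Ddit3 at 67.6 and Cebpg at 50.0.
Ddit3 encodes CHOP, which promotes cell death under prolonged stress. It was at 15.8, 12.6, 158 and 7.51 CPM in wild-type and at 9.17, 10.999, 30.1 and 27.1 CPM in ΔAgo2 replicates 1 to 4. Wild-type replicate 3 alone was far above the rest, at 11.1 times the mean of wild-type replicates 1 and 2. Its log2 fold change of -1.33 (SE 0.90, edgeR adjusted p = 0.744) became 0.69 without that library.
Atf5, a relative of ATF4 translated by the same mechanism, was at 65.8, 137, 107 and 416 CPM in wild-type and at 105, 117, 115 and 233 CPM in ΔAgo2 replicates 1 to 4. Replicate 4 was the highest in both genotypes. Cebpg, a partner of ATF4 in heterodimers, was at 75.2, 97.1, 79.1 and 26.5 CPM in wild-type and at 79.0, 75.7, 89.4 and 122 CPM in ΔAgo2 libraries, with a log2 fold change of 0.40 (SE 0.38, edgeR adjusted p = 0.810). Cebpb, another bZIP factor of the response, ranged from 66.8 to 205 CPM over the 8 libraries, both extremes being wild-type.

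Among the feedback and effector genes, Trib3, Chac1 and Ppp1r15a differed more within each genotype than between them. Trib3, a pseudokinase that binds ATF4 and CHOP, was at 39.2, 70.7, 236 and 94.0 CPM in wild-type and at 40.7, 44.4, 115 and 241 CPM in ΔAgo2 replicates 1 to 4. The genotypes differed by a log2 fold change of 0.0022 (SE 0.66, edgeR adjusted p = 0.999). The highest wild-type library was 6.02 times the lowest of wild-type replicates 1 to 3, and the highest ΔAgo2 library was 5.92 times the lowest.
Chac1, which encodes an enzyme that degrades glutathione, was at 11.8, 24.1, 51.6 and 37.3 CPM in wild-type and at 15.6, 17.1, 27.1 and 93.9 CPM in ΔAgo2 replicates 1 to 4. ΔAgo2 replicate 4 was the highest library and 4.71 times the mean of ΔAgo2 replicates 1 to 3. The genotype difference of 0.30 on the log2 scale (SE 0.63, edgeR adjusted p = 0.918) became -0.64 without it.
Ppp1r15a encodes GADD34, the stress-induced subunit of the phosphatase that restores eIF2α. It ranged from 25.0 CPM in wild-type replicate 2 to 115 CPM in wild-type replicate 3, and the ΔAgo2 libraries lay between, from 34.6 to 87.8 CPM. Ppp1r15b, the constitutive counterpart, ranged from 104 to 192 CPM over the 8 libraries. Mean TPM over the 8 libraries was 175 for Trib3, 86.4 for Ppp1r15b, 71.3 for Chac1 and 66.4 for Ppp1r15a.

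**Figure D3:**
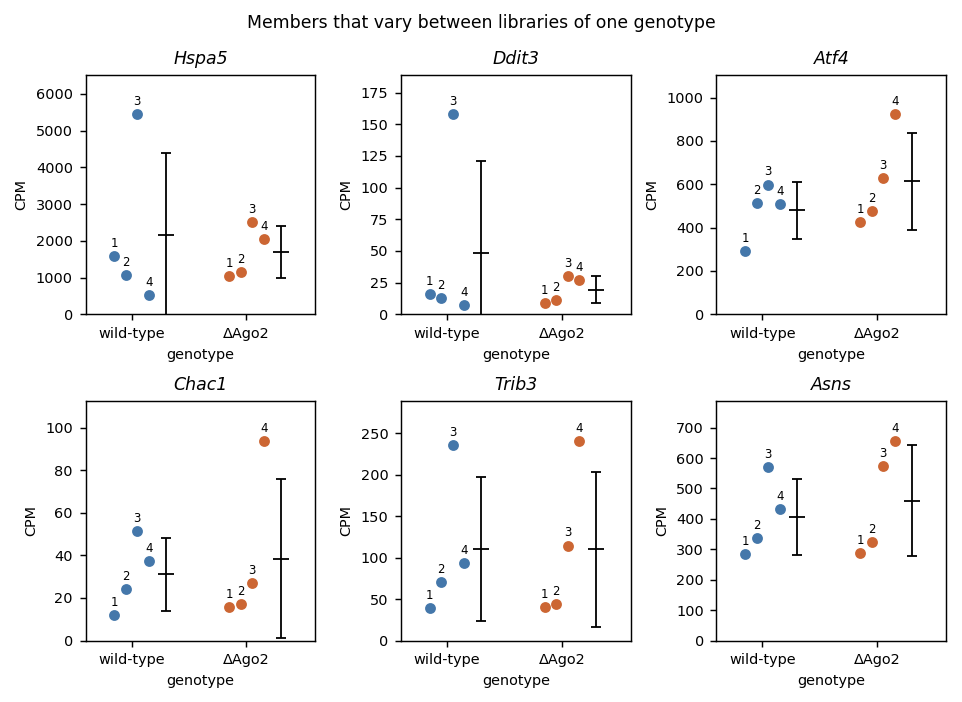
CPM (y axes, linear, from 0) of Hspa5, Ddit3, Atf4, Chac1, Trib3 and Asns by genotype. Points are libraries labelled with their replicate number, and black marks with bars are the mean and SD (n = 4), with bars that would pass below 0 cut there. Wild-type replicate 3 is the highest library for Hspa5 (5438 CPM) and Ddit3 (158 CPM), and ΔAgo2 replicate 4 for Atf4, Chac1, Trib3 and Asns.

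The genes of amino acid and one-carbon synthesis did not separate the genotypes over all 8 libraries. Asns, asparagine synthetase and a standard readout of ATF4, was at 284, 335, 569 and 433 CPM in wild-type and at 288, 323, 574 and 657 CPM in ΔAgo2 replicates 1 to 4. The genotypes differed by 0.18 on the log2 scale (SE 0.35, edgeR adjusted p = 0.912), and -0.034 without ΔAgo2 replicate 4. In both genotypes replicates 1 and 2 were the low libraries.
Phgdh, the first enzyme of serine synthesis, was at 249, 306.6, 291 and 1179 CPM in wild-type and at 365, 387, 422 and 486 CPM in ΔAgo2 replicates 1 to 4. Wild-type replicate 4 was above all other libraries, and without it all ΔAgo2 values exceeded all wild-type values, as for 5.9% of all tested genes. On the log2 scale it differed by -0.29 with that library and 0.56 without it (edgeR adjusted p = 0.896 and 0.224).
Shmt2, the mitochondrial serine hydroxymethyltransferase, had the same kind of shift, with 1344 CPM for wild-type replicate 4, 219 to 457 CPM in wild-type replicates 1 to 3 and 330.1 to 668 CPM in ΔAgo2 cells. On the log2 scale the genotypes differed by -0.35 with wild-type replicate 4 and 0.55 without it. Mthfd2, its partner in mitochondrial folate metabolism, was at 126, 175, 292 and 115 CPM in wild-type and at 164, 177, 263 and 303.2 CPM in ΔAgo2 libraries (log2 fold change 0.36, SE 0.36, edgeR adjusted p = 0.818). Psat1, the next enzyme of serine synthesis, ranged from 435 to 868 CPM over the 8 libraries. The log2 fold change was above 0 for 3 of the 5 over all libraries and for 5 without wild-type replicate 4, where 45.8% of all tested genes were above 0, and none of the 5 passed the edgeR test in either fit. At an unadjusted p under 0.05 the count was 0 over all libraries and 1, Phgdh, without wild-type replicate 4. Mean TPM over the 8 libraries was 579 for Phgdh, 531 for Asns, 507 for Psat1, 503 for Shmt2 and 199 for Mthfd2.

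The amino acid transporters included the member with the largest positive log2 fold change. Slc7a1, the cationic amino acid transporter CAT1, was at 94.7, 241, 330.2 and 151 CPM in wild-type and at 308.1, 260.1, 312 and 461 CPM in ΔAgo2 replicates 1 to 4. Only wild-type replicate 3 lay within the range of the ΔAgo2 libraries. On the log2 scale the difference was 0.71 (SE 0.39, unadjusted p = 0.0952, edgeR adjusted p = 0.729).
Slc7a5, the light chain of the large neutral amino acid transporter, ranged from 179.6 to 879 CPM in wild-type and from 440.3 to 821 CPM in ΔAgo2 cells. Slc3a2, its heavy chain, ranged from 249 to 717 CPM in wild-type and from 256 to 581 CPM in ΔAgo2 cells. The ranges of both chains overlapped between genotypes almost fully, and their log2 fold changes were 0.05 and -0.13. Mean TPM over the 8 libraries was 479.7 for Slc7a5, 379 for Slc3a2 and 81.2 for Slc7a1.

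The ER chaperones and folding enzymes included the most abundant mRNAs of the 40 genes. Hspa5, which encodes the chaperone BiP that holds the sensors inactive, had the highest mean of all, 1556 TPM over the 8 libraries. It was at 1573, 1069.7, 5438 and 514 CPM in wild-type and at 1052, 1141, 2508 and 2050.4 CPM in ΔAgo2 replicates 1 to 4. Wild-type replicate 3 was 4.12 times the mean of wild-type replicates 1 and 2, and the log2 fold change of -0.35 (SE 0.65, edgeR adjusted p = 0.907) became 0.68 without it.
Hsp90b1, which encodes the chaperone GRP94, was at 1211, 921, 1767 and 246 CPM in wild-type and at 1079, 1151, 1491 and 1262 CPM in ΔAgo2 replicates 1 to 4. Its difference on the log2 scale was 0.27 (SE 0.48, edgeR adjusted p = 0.904) and -0.053 without wild-type replicate 4, the lowest library.
Sdf2l1, a component of the ER chaperone complex, was at 64.1, 33.9, 73.5 and 118 CPM in wild-type and at 47.8, 45.6, 50.7 and 31.7 CPM in ΔAgo2 libraries (log2 fold change -0.72, SE 0.37, edgeR adjusted p = 0.709). Manf, a secreted ER stress protein, was at 213, 172, 285 and 324 CPM in wild-type and at 153, 188, 212 and 167 CPM in ΔAgo2 libraries (log2 fold change -0.47, SE 0.28, edgeR adjusted p = 0.738). For both genes the 2 highest libraries were wild-type replicates 3 and 4, and the groups overlapped.
Dnajc3, a BiP co-chaperone also called P58IPK, was at 109.6, 117, 116 and 27.3 CPM in wild-type and at 102, 93.7, 97.2 and 96.2 CPM in ΔAgo2 replicates 1 to 4. Without wild-type replicate 4, Dnajc3 was lower in every ΔAgo2 library, with a log2 fold change of -0.23 (edgeR adjusted p = 0.511). In that comparison Xbp1, Calr, Vldlr and Dnajc3 were lower and Phgdh higher without overlap, 5 of 40 genes, against 12.1% of all tested genes in either direction and 6.2% lower.
The other chaperones overlapped between the genotypes in both fits. Over the 8 libraries, the disulfide isomerases Pdia3, Pdia4 and Pdia6 ranged from 407 to 1043, 301.5 to 483 and 654 to 1173 CPM. Calnexin (Canx), the membrane-bound counterpart of calreticulin, ranged from 348 to 1174 CPM, and Hyou1, a BiP nucleotide exchange factor, from 289.8 to 635 CPM. Creld2 ranged from 42.9 to 77.5 CPM and the co-chaperone Dnajb9 (ERdj4) from 22.6 to 62.8 CPM. For these 7 genes the highest and lowest libraries were wild-type, except that Pdia3 was highest in ΔAgo2 replicate 2. Of the 13 chaperone genes, 5 were above and 8 below 0 over all libraries (median -0.10, beside -0.11 over all genes), and 1 was above and 12 below 0 without wild-type replicate 4 (median -0.23, beside -0.034). None of the 13 passed the edgeR test in either fit, and at an unadjusted p under 0.05 the count was 1, Calr, in each. Mean TPM over the 8 libraries was 982 for Hsp90b1, 963 for Pdia3, 782 for Pdia6, 769 for Calr, 611 for Canx, 561 for Pdia4, 198 for Manf, 196 for Hyou1, 166 for Sdf2l1, 134 for Creld2, 64.4 for Dnajc3 and 54.0 for Dnajb9.

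A set of 3 genes of ER-associated degradation, the route by which misfolded proteins leave the ER, was included. Herpud1, a scaffold of the degradation complex, was at 39.4, 57.6, 131 and 87.0 CPM in wild-type and at 38.5, 44.5, 46.6 and 97.4 CPM in ΔAgo2 replicates 1 to 4. Wild-type replicate 3 and ΔAgo2 replicate 4 were the highest of their genotypes, and its log2 fold change was -0.48 (SE 0.43, edgeR adjusted p = 0.794). Sel1l, the adaptor of the ubiquitin ligase, ranged from 63.0 to 225 CPM in wild-type and from 123 to 143 CPM in ΔAgo2 libraries, and Edem1, a mannosidase-like protein, from 99.8 to 201 and from 142 to 174 CPM. Mean TPM over the 8 libraries was 96.4 for Herpud1, 84.0 for Edem1 and 52.3 for Sel1l. The 3 genes were below 0 without wild-type replicate 4, and their smallest edgeR adjusted p in that fit was 0.740.

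Among the 40 genes, the library that was highest within a genotype differed between the roles, as the heat map shows. ΔAgo2 replicate 4 was the highest ΔAgo2 library for 5 of 5 amino acid and one-carbon synthesis genes, 3 of 3 transporters, 5 of 5 feedback genes and 4 of 6 transcription factors. It was the highest for 1 of 13 chaperones and 0 of 5 sensors and kinases. Over the 40 genes that makes 19, or 47.5%, where 26.3% of all tested genes were highest there.
Wild-type replicate 3 was the highest of all 8 libraries for 16 of 40 genes, against 20.5% of all tested genes. These included 6 of 13 chaperones, 3 of 3 degradation genes and 0 of 5 synthesis genes. Ranked among the wild-type libraries alone, it was the highest for 24 of the 40 genes, against 3594 of all 14228 tested genes. By role that was 7 of 13 chaperones, 3 of 3 degradation genes and 2 of 5 synthesis genes. More than 2-fold above the mean of wild-type replicates 1 and 2 it held Ddit3 (11.1), Trib3 (4.29), Hspa5 (4.12), Ppp1r15a (3.15), Chac1 (2.88), Slc3a2 (2.77) and Herpud1 (2.71), 17.5% of the 40 genes against 6.56% of all tested genes. More than 2-fold above the mean of ΔAgo2 replicates 1 to 3, ΔAgo2 replicate 4 held Chac1 (4.71), Trib3 (3.62), Herpud1 (2.26) and Atf5 (2.07), 10.0% against 1.55%. Chac1, Trib3 and Herpud1 were thus high in both libraries. Ddit3 and Hspa5 in ΔAgo2 replicate 4 were 1.62 and 1.31 times the mean of ΔAgo2 replicates 1 to 3, a mean that includes a high replicate 3. That library held 2.98, 2.29 and 2.69 times the mean of ΔAgo2 replicates 1 and 2 for Ddit3, Hspa5 and Trib3, and for Ddit3 and Hspa5 it was above replicate 4. These libraries were singled out after their values were seen, and no test was made of them. In bulk cultures, more cells with a response and more mRNA per cell cannot be told apart.

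**Figure D4:**
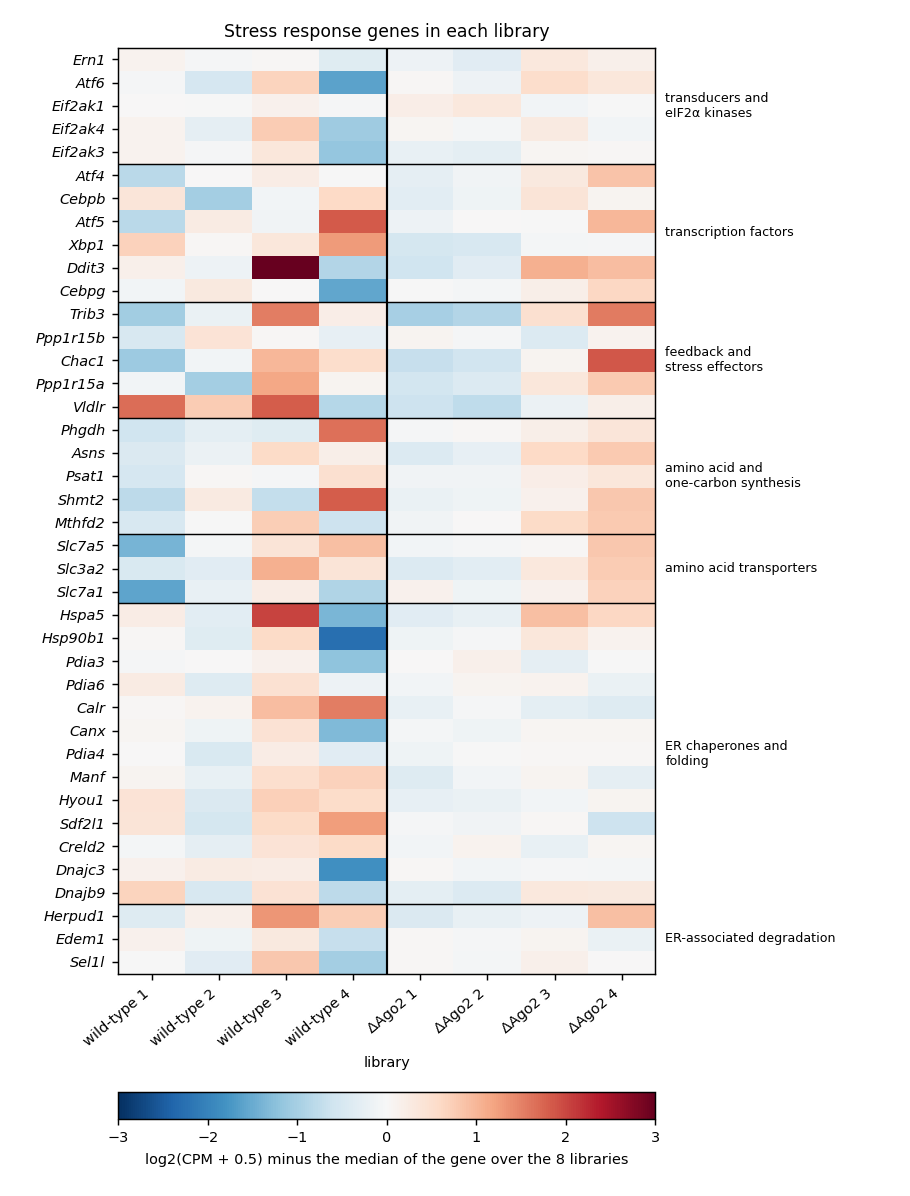
Log2(CPM + 0.5) minus the median of the gene over the 8 libraries (color, limited to 3 in either direction) for the 40 genes (rows, grouped by role) in each library (columns). ΔAgo2 replicate 4 is high for the feedback, synthesis and transporter genes, and wild-type replicate 3 for Hspa5 and Ddit3 among others. Wild-type replicate 4 has the lowest values for 16 of 40 genes and the highest for 11, against 37.1% and 35.4% of all tested genes.

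In ΔAgo2 libraries the SD of log2 CPM had a median of 0.63 for the feedback genes, 0.43 for the synthesis genes, 0.42 for the transporters, 0.40 for the transcription factors, 0.15 for the chaperones and 0.13 for the degradation genes. In wild-type replicates 1 to 3 it was 1.04, 0.52, 0.92, 0.54, 0.44 and 0.59 in the same order. The medians over all tested genes were 0.20 and 0.36, so wild-type replicates 1 to 3 had the wider spread over all genes too, and the sensors and kinases had 0.18 in both genotypes. Summed over the 13 chaperones, TPM ran from 6544 to 7462 in ΔAgo2 libraries and was 6375, 6421, 11996 and 3605 in wild-type replicates 1 to 4.

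Wild-type replicate 4 was above the mean of the other wild-type libraries for 19 of the 40 genes and below it for 21, and which way a gene went followed the GC content of its transcript. Over the 40 genes the Spearman correlation between the 2 was 0.81, a description over genes that share the same libraries. The corresponding correlation over all tested genes was 0.722, so the pattern was not particular to the 40. Genes of high GC content such as Shmt2 (57.4%), Phgdh (57.2%) and Atf5 (61.7%) were higher by 2.24, 2.07 and 2.07 on the log2 scale in that library. Hsp90b1 (42.1%), Vldlr (43.8%) and Dnajc3 (43.2%) were lower, at -2.35, -2.27 and -2.05. Xbp1 and Calr, at 53.0% and 50.0% GC, were higher in it by 0.92 and 1.18. The part of GC content in the genotype differences was not tested beyond a correction of each library for its GC trend, after which none of the 40 genes passed the edgeR test, and 0.478% of all tested genes did. At an unadjusted p under 0.05 there were then 3 members, against 9.95% of all tested genes.

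**Figure D5:**
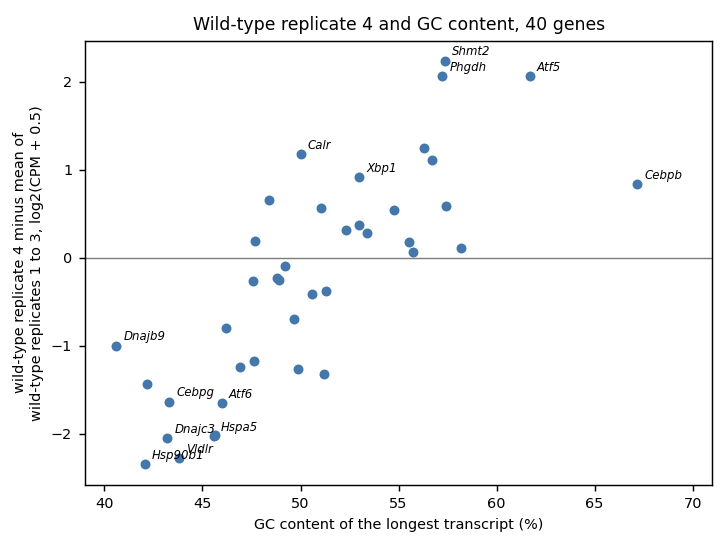
GC content of the longest annotated transcript (x axis, percent) against the deviation of wild-type replicate 4 from the mean of wild-type replicates 1 to 3 (y axis, log2 units) for the 40 genes, each a point. The points rise from left to right, with Hsp90b1 at -2.35 and Shmt2 at 2.24.

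Windows at the starts of the genes were also searched for short sequences. The genes were chosen for their place in a pathway that acts through such sequences, so the matches are a description and no independent finding. A gene can have more than 1 window, so a count of genes and a share of windows are unlike measures. RefSeq windows of 300 bases were found for 35 of the 40 genes and were searched on both strands. The ER stress element, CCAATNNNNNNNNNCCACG, bound by NF-Y together with ATF6 or XBP1, was present for 7 of the 35 genes, all of them chaperones or folding enzymes, and in 0.119% of all 32851 windows. Its matches are shown in the direction of the motif, with the fixed letters in capitals, because they are the sequences these chaperones share.
Calr: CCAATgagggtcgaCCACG
Canx: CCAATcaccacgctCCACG
Creld2: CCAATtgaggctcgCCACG
Dnajc3: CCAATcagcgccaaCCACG
Hsp90b1, first match: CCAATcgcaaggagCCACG
Hsp90b1, second match: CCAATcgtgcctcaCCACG
Hspa5: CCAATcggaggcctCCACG
Pdia6: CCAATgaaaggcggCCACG
The match nearest its start was that of Hspa5, whose first base lay at -65 relative to the start, and the farthest was the first of Hsp90b1, at -212. Of these 7 genes, Calr and Dnajc3 were among the 5 without overlap once wild-type replicate 4 was left out, and the other 5 overlapped. Over all tested genes 12.1% had no overlap in that comparison.
Herpud1 held the related element ATTGGNCCACG as ATTGGgCCACG, found in 0.0365% of all windows. A C/EBP-ATF element, TGATGNAA, the kind of site ATF4 binds with C/EBP partners, was present for 5 of the 35 genes and in 3.97% of all windows. These were Asns (TGATGaAA), Chac1 (TGATGcAA), Herpud1 (TGATGcAA), Trib3 (TGATGtAA) and Vldlr (TGATGcAA). Of the 5, Chac1, Trib3 and Herpud1 were the ones more than 2-fold high in both wild-type replicate 3 and ΔAgo2 replicate 4, while Asns and Vldlr were not. Those libraries and genes were picked out by the same values, and a link to the motif was not tested. The XBP1 site TGACGTGG was present for 0 of the 35 genes and in 0.676% of all windows. A match describes letters in the window and shows no binding, and windows without one show only that these letters are not there.

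A wider list of 89 genes of the same pathways was measured, and 88 of them were tested. None passed an adjusted p of 0.05 in edgeR's quasi-likelihood test or with DESeq2. At an unadjusted p under 0.05 edgeR put 2 genes higher and 1 lower, against 7.34% of all tested genes in either direction. Their log2 fold changes had a median of -0.13, beside -0.11 over all genes, with 35 genes above and 53 below 0. Wfs1, an ER membrane protein tied to calcium and degradation of ATF6, was at 8.74, 9.12, 14.0 and 18.8 CPM in wild-type and at 19.1, 20.7, 23.9 and 20.1 CPM in ΔAgo2 replicates 1 to 4. All ΔAgo2 libraries lay above all wild-type ones, as for 439 of the 14228 tested genes (log2 fold change 0.73, edgeR adjusted p = 0.664). Wfs1 passed with voomWithQualityWeights (adjusted p = 0.0437), where 1.81% of all genes did, among adjusted p values that ran to 0.979. Slc38a2, a neutral amino acid transporter, had a log2 fold change of 0.72 and Cth, the enzyme that makes cysteine from cystathionine, of 0.72, neither passing the test.
Gdf15, a secreted stress cytokine induced by ATF4 and CHOP, was at 17.2, 1.01, 32.9 and 0.838 CPM in wild-type and at 1.40, 1.497, 3.77 and 2.10 CPM in ΔAgo2 replicates 1 to 4. It was high in wild-type replicates 1 and 3 and low elsewhere (log2 fold change -2.57, SE 1.03, edgeR adjusted p = 0.613). Dele1 and Edem2 had log2 fold changes of -0.76 and -0.62, with wild-type replicate 4 the highest library for both. The list held 12 aminoacyl-tRNA synthetases, which charge tRNAs and are ATF4 targets. Of these, 9 were above 0 over all libraries and 11 without wild-type replicate 4 (medians 0.16 and 0.14), against 41.2% and 45.8% of all tested genes. The count under an unadjusted p of 0.05 was 0 in either fit. ΔAgo2 replicate 4 was the highest ΔAgo2 library for 11 of these 12 genes and for 11 of the 12 wider genes of amino acid synthesis and uptake. It was the highest for 12 of the 24 genes of ER translocation, folding and secretion, 6 of the 14 tested wider degradation genes and 10 of the 26 stress factors and regulators. The share over all tested genes was 26.3%, so each of these lists lay above it.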

How the data were processed

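RNA-seq was made from 4 wild-type and 4 ΔAgo2 libraries. The authors aligned reads to ribosomal RNA and then to mm10, counted them on genes with featureCounts, and deposited whole-read counts and, per length, TPM. STAR is named in the submitters' processing notes, and the annotation release and strand setting are not given in the sources used here, so overlapping genes could share reads. The deposited counts of 39628101 to 68530912 per library were filtered with filterByExpr, scaled with TMM and tested with edgeR 4.0.16 (R 4.3.3), two-sided, genotype only, with Benjamini-Hochberg adjustment over 14228 genes and a threshold of 0.05. Exact permutation tests enumerated all 70 arrangements, and scipy 1.17.1 gave the Spearman correlation over the 40 genes. Positions, GC content and length came from GENCODE on GRCm38, with 93 identifiers unmatched. Of 2 Ddit3 identifiers, the one with counts was used.

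Fold changes with tests are given for Ago2, for 13 members central to the pathway, for members called with or without wild-type replicate 4 or without overlap, and for the 5 smallest p in each direction. Other genes named were chosen after their values were seen. For the wider list, the 3 smallest p in each direction are named. The members and lists were chosen with earlier results of these data known. Alternatives were DESeq2 1.42.0, other scalings and filters, limma 3.58.1 (voomWithQualityWeights, log2(TPM + 1), log2(TPM + 0.1)), a replicate block, GC correction, and leaving out each library. An immune marker gene of the lists is not reported here.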

Additional observations from a re-analysis of the deposited data

Results flagged for a closer look

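In 5 of 86 groups of 4 libraries (log2 CPM of the 40 members and Ago2, the mitochondrial share and the total counts, in each genotype), 1 library lay far from the other 3, its gap to the nearest of them taking nearly all of the range, beyond Dixon's critical value. Chance gives this for about 1 in 20 single groups. The 86 groups share the same libraries, so that rate does not measure how unusual 5 of them are. In wild-type cells this was replicate 4 each time, lowest for Dnajc3 (0.953 of the range) and Pdia3 (0.868) and highest for Phgdh (0.867). In ΔAgo2 cells it was replicate 4, highest for Atf5 (0.864) and Slc7a5 (0.847). Their CPM values are given with the results for each gene.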

How the results depend on the processing

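The count of all genes called, 42, became 399 with DESeq2, 143 without a filter, 257 with voomWithQualityWeights, 15 with log2(TPM + 1) and 68 with the GC correction, and ran from 1 to 113 with single libraries left out. Calls among the 40 genes stayed at 0, apart from 1, Vldlr, with voomWithQualityWeights and without wild-type replicate 4. With log2(TPM + 1) and log2(TPM + 0.1) the median of all genes moved to 0.15 and 0.22, and the medians of the 40 genes were 0.26 and 0.28, of the transcription factors 0.19 and 0.20 (0.22 with the GC correction, alone or with the block, and -0.39 to 0.19 with libraries left out) and of the chaperones 0.22 and 0.22. The transporter median was 0.77 with voomWithQualityWeights. Signs turned for Trib3 (-0.00085 with DESeq2, -0.019 with RLE scaling, -0.0011 with at least 10 counts in every library of a genotype, -0.19 with voomWithQualityWeights), Eif2ak3 (0.038 with library size alone, 0.26 and 0.28 in TPM), Hspa5 (0.31 and 0.31 in TPM), and with voomWithQualityWeights for Eif2ak4 (-0.10), Ern1 (-0.20) and Hsp90b1 (-0.014), and the cause was not tested. The replicate block gave 18 calls over all genes, and 64 with the GC correction, 0 among the 40 both times, and turned Eif2ak3 (0.064, or 0.12 with the GC correction), Hspa5 (0.053) and Trib3 (-0.093). Same-numbered libraries deviated together with correlations of -0.14, -0.049, 0.38 and 0.028 for replicates 1 to 4. The labels do not say whether libraries of the same number share more than the number, and this was not tested. With single libraries left out, log2 fold changes ran from -0.034 to 0.39 for Asns, -0.64 to 0.66 for Chac1, -1.68 to 0.69 for Ddit3, -0.25 to 0.16 for Eif2ak3, -0.20 to 0.39 for Eif2ak4, -0.053 to 0.18 for Ern1, -0.053 to 0.65 for Hsp90b1, -0.67 to 0.68 for Hspa5, -0.72 to 0.70 for Trib3 and -0.047 to 0.60 for Ago2. Xbp1 (-1.09 to -0.62), Calr (-1.20 to -0.42) and Vldlr (-2.08 to -0.90) were below 0 under every setting tried. Over all settings, 36 of 494 recomputed values of single genes and 43 of 152 recomputed list medians turned sign, and 3 of the former gained a call.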
